A study of Mus musculus with 44 samples.

Results

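The genes described here are 10 markers of macrophages and other myeloid cells: Csf1r, Adgre1, Itgam, Cd14, Tyrobp, Cd68, C1qa, C1qb, S100a8 and S100a9. They were chosen by name from the 31484 genes to which the deposited transcripts were summed, and all 10 are protein-coding. Messenger RNA was sequenced from the gastric corpus mucosa of female BalbC mice aged 13 months, in 4 groups. KO mice lack the H+/K+ATPase beta subunit, which parietal cells need to secrete acid, and WT mice carry it. NTZ is netazepide, an antagonist of the gastrin receptor, and PEG is its vehicle. There were 11 libraries of WT/PEG, 9 of WT/NTZ, 13 of KO/PEG and 11 of KO/NTZ, with total estimated counts between 6065084 and 21945124. Atp4b, the targeted gene, was at 2891 to 5737 CPM (the normalised count, relative to the size of the library) in WT/PEG libraries and at 2.28 to 17.0 in KO/PEG libraries. The labels do not say that all libraries came from separate mice. A pair of WT/PEG libraries carries 1 animal number, and 1 number occurs in both KO groups, and the study's methods give fewer KO/PEG mice than there are libraries, so p-values measure the spread between these libraries.

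Macrophages live in the lamina propria of the stomach, where they take up debris and microbes and depend on signals through CSF1R, the receptor for the growth factors CSF1 and IL-34. ADGRE1 (F4/80) and the integrin chain ITGAM (CD11b) are used to identify them, CD14 passes bacterial lipopolysaccharide to TLR4, and TYROBP (DAP12) is the adaptor through which receptors such as TREM2 signal. CD68 is a glycoprotein of their lysosomes, and C1QA and C1QB are chains of C1q, the recognition molecule of the classical complement pathway. S100A8 and S100A9 form calprotectin, abundant in neutrophils and monocytes and also made by stratified squamous epithelium.

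In KO/PEG mice 7 of the 8 members that could be tested were higher than in WT/PEG mice, with Cd14 10.02-fold higher and the others that passed between 1.81-fold and 4.51-fold higher. Adgre1 did not pass, and Itgam and S100a8 were under the filter on low counts. NTZ moved none of the 8 past the threshold (adjusted p under 0.05) in either genotype. These counts stand against a large background, since 74.6% of all 14901 genes tested passed in the same comparison, 37.5% higher and 37.2% lower. The libraries also differed in how their counts depended on transcript length (the length slope, defined with its values near the end). With the slope as a covariate 1 of the 8, Cd14, passed, beside 34% of all genes, 17.1% higher and 16.9% lower. Of 24 KO libraries 1 had a slope within the WT range, so fits with this covariate can hardly tell slope and genotype apart. Fewer cells of a type and less RNA per cell cannot be told apart in such bulk samples.

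The sequence before the start of C1qb and of S100a9 is shown because most members varied together with C1qb from library to library, whereas S100a9 followed other genes. Of the 10 members 5 had an entry among the RefSeq promoters (GRCm38.p6), namely Cd68, Itgam, C1qb, S100a8 and S100a9. Both windows are the 250 bases before the start in RefSeq, which for C1qb lies outside the gene positions given with its levels, 5′ to 3′ on the strand of the gene. Capitals mark the letters TTNNGNAA, a form of the site of C/EBP factors, on either strand. The core of a PU.1 site, GAGGAAG, was also searched on both strands. Among windows of the same length at all 32851 promoters, 36.8% held the first motif and 10.6% the second. C1qb, at chr4:136886201-136886450 on the minus strand, held neither.
C1qb: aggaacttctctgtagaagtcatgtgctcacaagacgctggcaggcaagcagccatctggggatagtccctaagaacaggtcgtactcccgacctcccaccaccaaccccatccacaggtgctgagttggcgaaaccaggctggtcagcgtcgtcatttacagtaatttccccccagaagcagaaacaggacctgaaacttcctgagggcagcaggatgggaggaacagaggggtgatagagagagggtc
S100a9, at chr3:90695722-90695971 on the minus strand, held 2 matches to the first motif and none to the second.
S100a9: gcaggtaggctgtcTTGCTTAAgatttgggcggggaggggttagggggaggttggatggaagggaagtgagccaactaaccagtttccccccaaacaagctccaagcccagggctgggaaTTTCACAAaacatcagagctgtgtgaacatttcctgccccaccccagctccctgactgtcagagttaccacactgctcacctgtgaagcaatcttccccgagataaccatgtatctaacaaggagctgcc

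Levels between genes were compared as CPM per kilobase of transcript. C1qa was the highest member in each of the 4 groups, at 15.5 ± 4.64 CPM per kilobase (SD, n = 11) in WT/PEG and 48.0 ± 20.5 (n = 13) in KO/PEG. C1qb came next and Tyrobp after it in each group. In WT/PEG the order then ran Csf1r, Cd68, Cd14, Adgre1, S100a9, S100a8 and Itgam. In KO/PEG Cd14 came directly after Tyrobp, at 17.4 ± 4.92 CPM per kilobase, before Cd68 at 8.18 ± 2.09 and Csf1r at 7.13 ± 1.71. The ranges of neighbours in these orders overlapped in each group, except those of C1qa and C1qb in KO/NTZ.

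**Figure D1:**
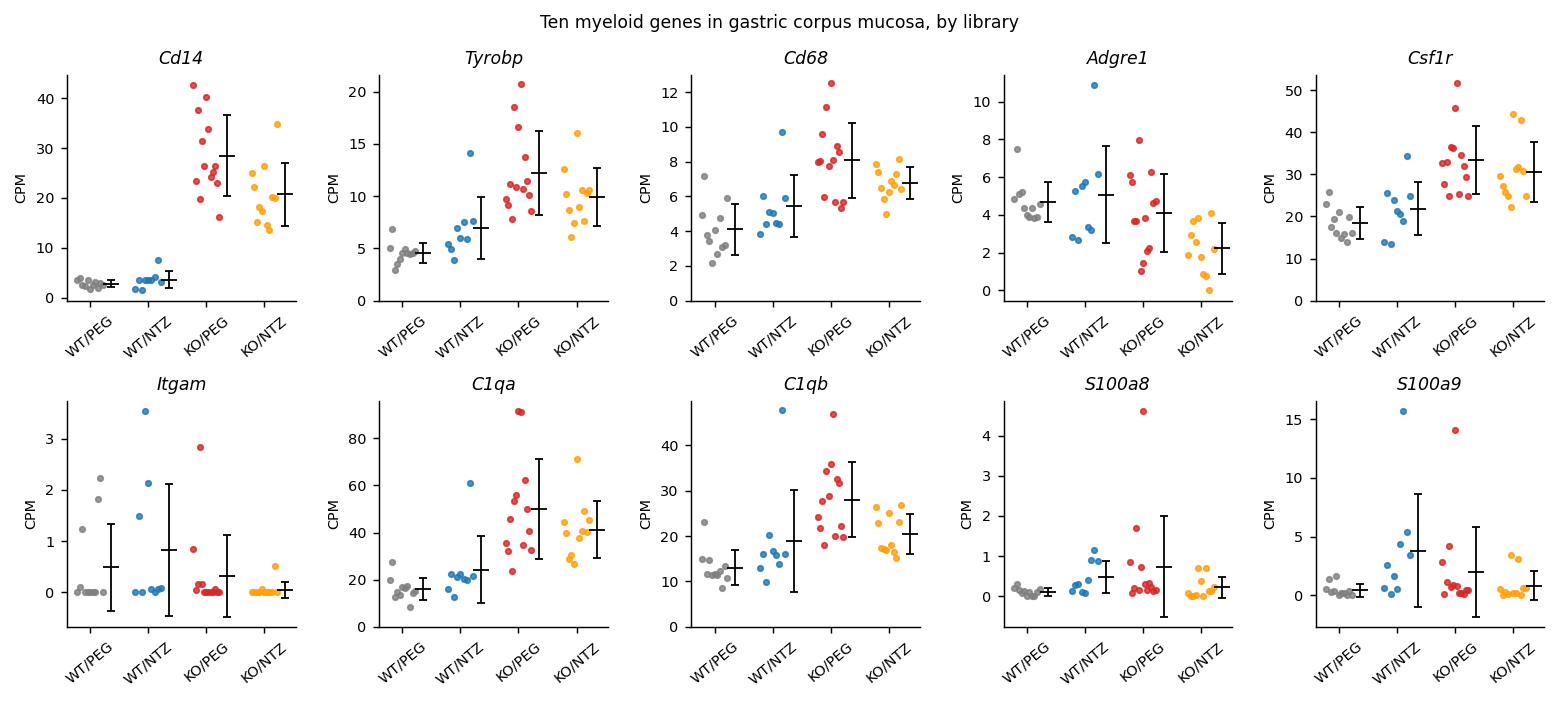
CPM of the 10 members in each library (dots), with the mean and SD of each group beside them (bar), on an axis of its own for each gene. Cd14 lies at 16.1 to 42.6 CPM in KO/PEG and at no more than 7.60 in WT libraries, Itgam is at or near 0 in most libraries, and S100a9 reaches 15.7 and 14.04 CPM in 1 WT/NTZ and 1 KO/PEG library.

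Csf1r (chr18:61100598-61132149, plus strand, in GRCm38 as are all positions) was at 13.9 to 25.7 CPM (median 17.5) in WT/PEG and at 24.8 to 51.9 CPM (median 32.8) in KO/PEG. With NTZ it was at 13.4 to 34.4 CPM (median 21.4) in WT and at 22.2 to 44.4 CPM (median 29.5) in KO mice. Of 13 KO/PEG libraries 10 lay above every WT/PEG library. By edgeR's quasi-likelihood test the log2 fold change from WT/PEG to KO/PEG was 0.85 (SE 0.14, adjusted p = 7.26e-07), and from WT/NTZ to KO/NTZ it was 0.47 (adjusted p = 0.0052). Its counts came from a transcript of 4701 bases and one of 3870 bases. The longer was at 10.1 ± 4.88 CPM (SD, n = 11) in WT/PEG and at 33.1 ± 8.15 (n = 13) in KO/PEG, and the shorter at 8.38 ± 5.96 and 0.325 ± 1.03. In the fit of single transcripts the log2 fold change was 1.66 for the longer and -4.69 for the shorter (adjusted p = 1.38e-07 and 0.00099 by edgeR). Kallisto divides reads that both transcripts share by estimation, so their split is less certain than the sum.

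Adgre1 (chr17:57358691-57483527, plus strand) was at 3.84 to 7.49 CPM (median 4.37) in WT/PEG and at 1.04 to 7.93 CPM (median 3.81) in KO/PEG. Of the KO/PEG libraries 7 of 13 lay below and 1 above every WT/PEG library, and the log2 fold change was -0.18 (SE 0.30, adjusted p = 0.60). Under NTZ its level was 2.66 to 10.9 CPM (median 5.24) in WT and 0 to 4.11 CPM (median 2.18) in KO mice. There 7 of 11 KO/NTZ libraries lay below every WT/NTZ library, and the log2 fold change was -1.14 (SE 0.34, adjusted p = 0.0028). From KO/PEG to KO/NTZ it was -0.84 (adjusted p = 0.096), and -0.93 (adjusted p = 0.041) without KO/PEG 53 or -0.92 (adjusted p = 0.044) without the KO/PEG library highest in S100a9.

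Itgam (chr7:128062640-128118491, plus strand) was listed at 0 in 26 of 44 libraries and was under 3 counts in 34. It reached 42 counts in KO/PEG 46 (total 10564371) but had 0 in WT/PEG 120 (total 17715992). Its counts thus did not follow depth alone, and the cause was not tested. Its highest values were 2.24 CPM in WT/PEG and 3.54 in WT/NTZ libraries, against 2.84 and 0.520 in KO libraries given PEG and NTZ. Without the filter its log2 fold change was -0.53 (adjusted p = 0.67) from WT/PEG to KO/PEG and -3.29 (adjusted p = 0.017) from WT/NTZ to KO/NTZ. Its partner chain Itgb2, named for that role, was at 2.56 to 9.60 CPM (median 4.46) in WT/PEG and 2.26 to 9.18 CPM (median 4.58) in KO/PEG (log2 fold change 0.22, adjusted p = 0.43). Of 9 leukocyte integrin and adhesion genes 8 were tested, and 3 were higher and 2 lower in KO/PEG, beside the 37.5% and 37.2% of all genes given above. With the length slope as a covariate the counts were 1 and 0.

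Cd14 (chr18:36725067-36726798, minus strand) was at 1.76 to 3.90 CPM (median 2.68) in WT/PEG and at 16.1 to 42.6 CPM (median 26.4) in KO/PEG. With NTZ it was at 1.53 to 7.60 CPM (median 3.62) in WT and at 13.6 to 34.8 CPM (median 20.1) in KO mice. Neither KO group overlapped the WT group with the same treatment. The log2 fold change was 3.33 (SE 0.20, adjusted p = 1.27e-17) between the PEG groups and 2.48 (SE 0.21, adjusted p = 8.00e-13) between the NTZ groups by edgeR. NTZ in KO mice gave -0.46 (SE 0.17, adjusted p = 0.0998), with 9 of 11 KO/NTZ libraries under the KO/PEG median. Among animals numbered below 100 this fold change was -0.65 (adjusted p = 0.036), and with the number class as a covariate -0.37 (adjusted p = 0.14). It was -0.56 (adjusted p = 0.049) without KO/NTZ 110. Numbers below 100 belonged to 0 of 11 WT/PEG, 5 of 9 WT/NTZ, 6 of 13 KO/PEG and 10 of 11 KO/NTZ libraries. Number class and group are therefore partly confounded, and the labels do not say what the classes stand for.

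Of the 15 genes of the pathway from CD14 through TLR4 14 were tested. In KO/PEG 8 were higher and 5 lower than in WT/PEG, beside 37.5% and 37.2% of all genes. With the length slope as a covariate 10 were higher and 2 lower, beside 17.1% and 16.9% of all genes. Tlr1 and Tlr2, receptors for bacterial lipoproteins, had log2 fold changes of 1.30 (adjusted p = 1.06e-11) and 3.57 (adjusted p = 1.37e-11). Lbp, which brings lipopolysaccharide to CD14, rose by a log2 fold change of 2.58 (adjusted p = 3.39e-11), and the kinase gene Irak1 was lower, at -0.60 (adjusted p = 6.34e-11). Chosen for their roles after their values were seen, the co-receptor gene Ly96 was at 0.74 (adjusted p = 1.01e-06) and Tlr4 itself at -0.73 (adjusted p = 0.000614). None of the 14 passed with NTZ in either genotype by edgeR.

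Tyrobp (chr7:30413760-30417585, plus strand) was at 2.97 to 6.86 CPM (median 4.57) in WT/PEG, and all 13 KO/PEG libraries lay above this range, at 7.76 to 20.7 CPM (median 10.9). The log2 fold change was 1.42 (SE 0.18, adjusted p = 4.20e-09). In NTZ-treated mice Tyrobp was at 3.89 to 14.1 CPM (median 5.95) in WT and at 6.12 to 16.1 CPM (median 10.2) in KO mice, a log2 fold change of 0.50 (adjusted p = 0.018). The NTZ effect was 0.62 (adjusted p = 0.14) in WT mice and -0.31 (adjusted p = 0.24) in KO mice. Among animals numbered 100 or above the WT effect was 0.95 (adjusted p = 0.0087), with 4 WT/NTZ libraries, the one at 14.1 CPM among them. With any 1 library left out of the full fit the WT effect ran from 0.41 (adjusted p = 0.81) to 0.69 (adjusted p = 0.048). The lower value came without the WT/NTZ library highest in C1qa, the higher without WT/NTZ 93.

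Of 16 receptors, adaptors and kinases that work with TYROBP 9 were tested. In KO/PEG 8 were higher and 0 lower, beside 37.5% and 37.2% of all genes. With the length slope as a covariate the counts were 2 and 0, beside 17.1% and 16.9% of all genes. Trem2, a lipid receptor that signals through TYROBP, rose by a log2 fold change of 1.70 (adjusted p = 6.00e-09), and Fcer1g, a related adaptor, by 1.26 (adjusted p = 4.97e-08). With NTZ in KO mice 2 of the 9 passed, both lower, beside 2.6% of all genes. They were Trem2 at -0.85 (adjusted p = 0.0086) and Clec5a, another partner of TYROBP, at -1.29 (adjusted p = 0.0082).

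Cd68 (chr11:69664213-69666153, minus strand) was at 2.17 to 7.17 CPM (median 3.75) in WT/PEG and at 5.32 to 12.5 CPM (median 8.02) in KO/PEG, with 9 of 13 KO/PEG libraries above every WT/PEG library. The log2 fold change was 0.97 (SE 0.16, adjusted p = 1.17e-06). With NTZ the groups overlapped, at 3.81 to 9.73 CPM (median 5.02) in WT and 4.99 to 8.18 CPM (median 6.64) in KO mice, with a log2 fold change of 0.31 (adjusted p = 0.11). Without the WT/NTZ library that was highest in Cd68 the value was 0.46 (adjusted p = 0.014). Of 15 lysosome genes, which all cells express, 15 were tested. In KO/PEG 11 were higher, among them the proteases Ctsz at 1.41 and Ctsl at 1.27, and 2 lower, beside 37.5% and 37.2% of all genes. The slope as a covariate left 3 higher and 4 lower, beside 17.1% and 16.9% of all genes.

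C1qa (chr4:136895917-136898803, minus strand) was at 8.32 to 27.6 CPM (median 15.3) in WT/PEG and at 23.6 to 91.7 CPM (median 45.8) in KO/PEG, with 12 of 13 KO/PEG libraries above every WT/PEG library. The log2 fold change was 1.63 (SE 0.22, adjusted p = 2.08e-08). With NTZ it was at 12.8 to 61.0 CPM (median 21.01) in WT and at 26.7 to 71.3 CPM (median 40.1) in KO mice, a log2 fold change of 0.76 (adjusted p = 0.0040). All 11 KO/NTZ libraries lay above the WT/NTZ median, although the ranges overlapped.

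C1qb (chr4:136880129-136886187, minus strand) was at 8.53 to 23.1 CPM (median 11.6) in WT/PEG and at 18.0 to 46.9 CPM (median 27.8) in KO/PEG, with 8 of 13 above every WT/PEG library and a log2 fold change of 1.10 (SE 0.19, adjusted p = 1.67e-06). With NTZ it was at 9.82 to 47.8 CPM (median 16.1) in WT and at 15.2 to 26.8 CPM (median 18.1) in KO mice. That log2 fold change of 0.11 (adjusted p = 0.61) was 0.43 (adjusted p = 0.019) without the WT/NTZ library that was highest in C1qb. All 11 KO/NTZ libraries lay below the KO/PEG median, and the NTZ effect in KO mice was -0.45 (SE 0.18, adjusted p = 0.12). C1qc, the third chain, lies between C1qa and C1qb on chromosome 4 and rose by a log2 fold change of 1.19 (adjusted p = 7.60e-07) in KO/PEG. Of 16 complement genes that include it 16 were tested, and 6 were higher and 1 lower in KO/PEG, beside 37.5% and 37.2% of all genes. The share of higher genes was thus that of all genes. With the length slope as a covariate 5 were higher and 1 lower, beside 17.1% and 16.9% of all genes. Without that covariate Cfb, factor B of the alternative pathway, was at 2.85 and C4b at 1.90. Cfb was also higher with NTZ in WT mice, by 1.30 (adjusted p = 0.035).

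S100a9 (chr3:90692632-90695721, minus strand) was at 0 to 1.63 CPM (median 0.280) in WT/PEG and at 0.0730 to 14.04 CPM (median 0.736) in KO/PEG. With NTZ it was at 0.102 to 15.7 CPM (median 2.55) in WT and at 0 to 3.44 CPM (median 0.314) in KO mice. The ranges of all 4 groups overlapped. The log2 fold change from WT/PEG to KO/PEG was 2.17 (SE 0.82, adjusted p = 0.016), and 1.27 (adjusted p = 0.12) without the KO/PEG library that was highest in S100a9. From WT/PEG to WT/NTZ it was 3.13 (SE 0.86, adjusted p = 0.062). Among animals numbered 100 or above it was 4.04 (adjusted p = 0.0078), but that class held 4 WT/NTZ libraries, the one at 15.7 CPM among them. With any 1 library left out this NTZ effect ran from 2.46 (adjusted p = 0.32) to 3.49 (adjusted p = 0.040), and it passed in 5 of 44 such fits. From WT/NTZ to KO/NTZ it was -2.08 (adjusted p = 0.018), but -1.40 (adjusted p = 0.11) without the WT/NTZ library that was highest in S100a9 and -0.21 (adjusted p = 0.86) among animals numbered below 100.

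S100a8 (chr3:90668978-90670035, plus strand) was under 3 counts in 23 of 44 libraries, and its highest value was 4.61 CPM, in the KO/PEG library that was also highest in S100a9. Without the filter its log2 fold change from WT/PEG to KO/PEG was 2.48 (adjusted p = 0.0017). Its median was 0.219 CPM in KO/PEG and 0.0998 in WT/PEG, and S100a8 was not refitted with single libraries left out. The summed CPM of Ly6g, Mpo, Elane, Ngp and Camp, genes of the neutrophil surface and granules, was no more than 0.61 in any library. Other neutrophil genes did differ between the groups. Of the 18 read further below 9 were tested, and 7 were higher and 0 lower in KO/PEG, beside 37.5% and 37.2% of all genes. Of 15 other S100 genes and receptors 14 were tested. In KO/PEG 11 were higher, among them S100a11 at 2.76 and S100a6 at 2.71, and 3 lower, beside the same shares of all genes. With the length slope as a covariate 2 were higher and 2 lower, beside 17.1% and 16.9% of all genes.

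The 5 genes whose pattern was most like S100a9 over 44 libraries, after group means were removed, were Calml3, Il1f6, Csta1, Lce3b and Prss27 (r between 0.81 and 0.83). Several of these are known from stratified squamous epithelium. After this was seen, the summed CPM of 10 genes of such epithelium, among them Krt5, Krt14, Krt13 and Lor, was set beside S100a9. It was above 100 CPM in 16 libraries, 3 of WT/PEG, 6 of WT/NTZ, 2 of KO/PEG and 5 of KO/NTZ. S100a9 was above 1 CPM in 12 of these 16 and in 2 of the other 28.

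Within groups, log2 S100a9 rose with the log2 squamous sum (r = 0.68, rho = 0.64, permutation p = 1e-05 and 2e-05, adjusted p = 1e-04 and 0.0002 over 20 relations). The smallest p that these permutations can give is 1e-05. The squamous genes were chosen after the likeness of S100a9 was seen in the same libraries. These p-values do not account for that choice, so they describe the relation and do not test it anew. Without the 2 libraries farthest from the median of the sum r was 0.64, and it was 0.59 in KO and 0.84 in WT libraries. KO/PEG 46 combined a low squamous sum of 8.24 CPM with S100a9 at 4.19, S100a8 at 1.69 and Itgam at 2.84. With the sum as a covariate the log2 fold change of S100a9 from WT/PEG to WT/NTZ was 0.92 in place of 3.13. That from WT/PEG to KO/PEG was 1.70 (adjusted p = 0.016). As the covariate holds the same genes, chosen after the likeness of S100a9 was seen, this fit is also a description. The part of squamous tissue in S100a9 was not tested.

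**Figure D2:**
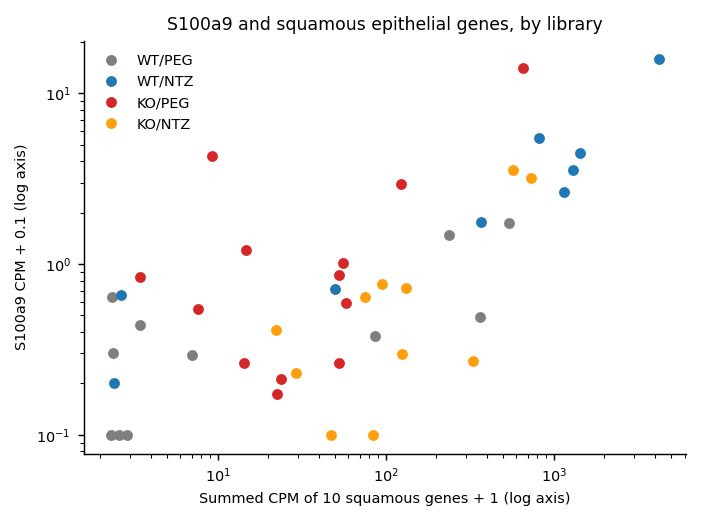
S100a9 CPM plus 0.1 against the summed CPM of 10 squamous epithelial genes plus 1, both on log axes, with 1 dot per library coloured by group. The libraries with the highest S100a9, 15.7 CPM in WT/NTZ and 14.04 in KO/PEG, have sums of 4228 and 654 CPM, and the KO/PEG library at 4.19 CPM has a sum of 8.24.

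The median log2 fold change of the 8 members tested was 1.26 between KO/PEG and WT/PEG, where that of all genes was -0.0028. Between KO/NTZ and WT/NTZ 4 members were higher and 2, Adgre1 and S100a9, lower. There 72.4% of all genes passed, 35.6% higher and 36.8% lower, and the members' median was 0.39. The comparisons share groups and are not independent.

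**Figure D3:**
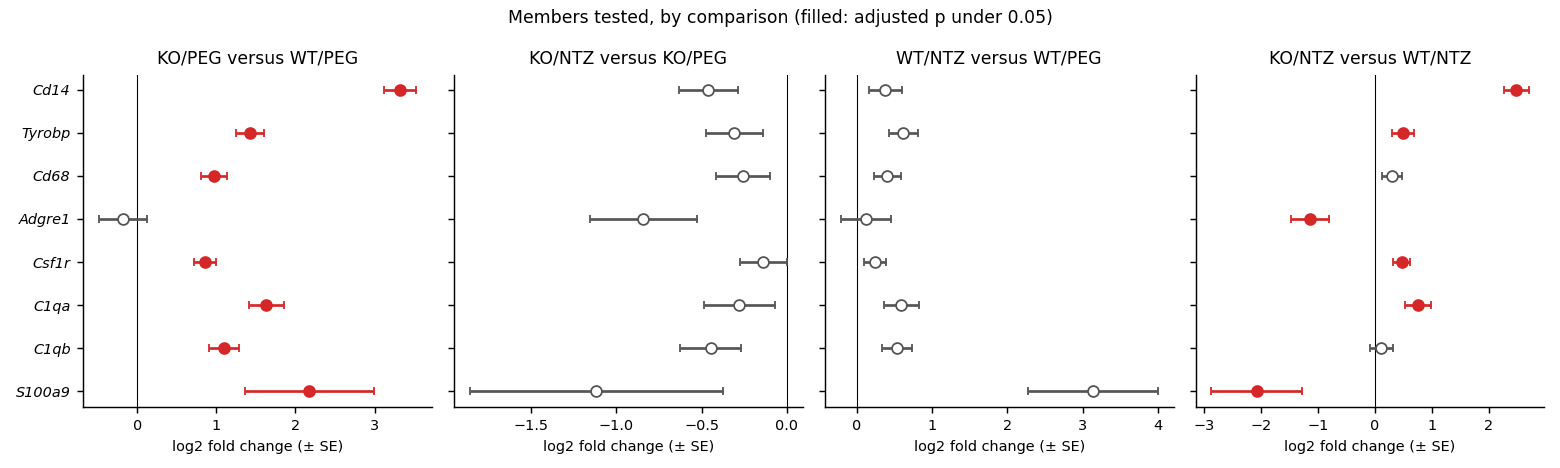
Log2 fold change (dot) and its standard error (bar) of the 8 members tested, in the 4 comparisons between groups. Filled red dots passed the threshold (adjusted p under 0.05 by edgeR), which 7 members did between the PEG groups, 6 between the NTZ groups and none with NTZ in either genotype.

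With NTZ in KO mice 0 of 8 members passed by edgeR, beside 5.56% of all genes (2.97% higher and 2.6% lower). With NTZ in WT mice 0 passed, beside 1.03% (1.03% higher and 0.00671% lower). At an unadjusted p under 0.05 there were 3 members in KO mice, all lower (Adgre1, Cd14 and C1qb), and 5 in WT mice, all higher (Tyrobp, S100a9, C1qb, C1qa and Cd68). Without the WT/NTZ library highest in C1qa the log2 NTZ effect in WT mice fell for C1qa from 0.60 to 0.29, for C1qb from 0.54 to 0.22 and for Cd68 from 0.41 to 0.25. DESeq2 called Adgre1 in KO mice, beside 1273 of 16720 genes, and S100a9 in WT mice, beside 193 of 17634. The 95% interval of the NTZ effect in KO mice ran from -0.80 to -0.12 for Cd14 and from -0.40 to 0.13 for Csf1r.

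The NTZ effect in KO minus that in WT mice was negative for all 8 members, with a median of -0.90. It passed for 0 of them by edgeR, beside 0.96% of all genes (0.242% higher and 0.718% lower). The log2 difference was -4.25 (adjusted p = 0.053) for S100a9, -0.98 (adjusted p = 0.061) for C1qb and -0.92 (adjusted p = 0.064) for Tyrobp, and 7 of the 8 had an unadjusted p under 0.05. With 1 library left out the call was made for S100a9 in 11, for Tyrobp in 4 and for C1qb in 3 of 44 fits. Without the WT/NTZ library highest in C1qa the difference shrank to -0.67 for C1qb and -0.72 for Tyrobp. Without the KO/PEG library highest in S100a9 it shrank to -3.35 for S100a9. DESeq2 called 4, namely Tyrobp, C1qb, S100a9 and S100a8, beside 288 of 17634 genes.

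The ratio of each member to Csf1r within a library does not depend on scaling between libraries. By two-sided permutation tests, adjusted over 36 ratios, the log2 ratio of Cd14 was higher by 2.45 (adjusted p = 0.00018) in KO/PEG than in WT/PEG, and by 2.08 (adjusted p = 0.00018) in KO/NTZ than in WT/NTZ. The log2 ratios of C1qa, Tyrobp and C1qb differed between the PEG groups by 0.73 (adjusted p = 0.00024), 0.54 (adjusted p = 0.00027) and 0.24 (adjusted p = 0.011), and that of Adgre1 by -1.22 (adjusted p = 0.0014). That of Cd68 differed by 0.16 (adjusted p = 0.36). Between the NTZ groups the differences were 0.36 (adjusted p = 0.029) for C1qa, 0.057 (adjusted p = 0.73) for Tyrobp, -0.26 (adjusted p = 0.27) for C1qb and -2.03 (adjusted p = 0.0027) for Adgre1. Csf1r is the longest of the members and these ratios were not corrected for the length slope. With NTZ in KO mice 0 of 9 ratios passed, C1qb being at -0.29 (adjusted p = 0.066) and Cd14 at -0.33 (adjusted p = 0.11). With NTZ in WT mice those of S100a8 and S100a9 were higher, by 1.34 (adjusted p = 0.029) and 2.65 (adjusted p = 0.017).

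From library to library within groups, Cd14, Tyrobp, Cd68, Csf1r, C1qa and C1qb varied together. Of the 28 pairs of tested members 17 passed (permutation test of Pearson r, adjusted over 45 pairs), the 15 among these 6 genes, Cd14 with S100a9 and Adgre1 with C1qb. The highest was C1qa with C1qb (r = 0.87, rho = 0.80, permutation p = 1e-05 and 1e-05, and r = 0.83 without the 2 farthest libraries). Csf1r with C1qa followed (r = 0.86, rho = 0.78, permutation p = 1e-05 and 1e-05, and r = 0.82 without 2 libraries). Adgre1 with Csf1r gave r = -0.069, rho = 0.034, permutation p = 0.67 and 0.83 over all libraries, but r = 0.83 in the 20 WT and -0.46 in the 24 KO libraries. S100a8 and S100a9 gave r = 0.78, rho = 0.71, permutation p = 1e-05 and 1e-05.

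The genes most like C1qa, C1qb and Tyrobp over the 44 libraries were led by C1qc in each case (r = 0.95, 0.90 and 0.85). Apoe was among the first 5 for C1qa, Csf1r and Tyrobp, and class II genes of the major histocompatibility complex for C1qa, C1qb, Tyrobp and Cd68. Spi1, which encodes the transcription factor PU.1, was first for Cd68 (r = 0.77). For Cd14 the first 4 were C1qb, Mmp14, Mall and C1qc (r between 0.70 and 0.74), and for Adgre1 the first 5 were Thbd, Dse, Lhfp, Nup160 and Ogn (r between 0.84 and 0.86).

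**Figure D4:**
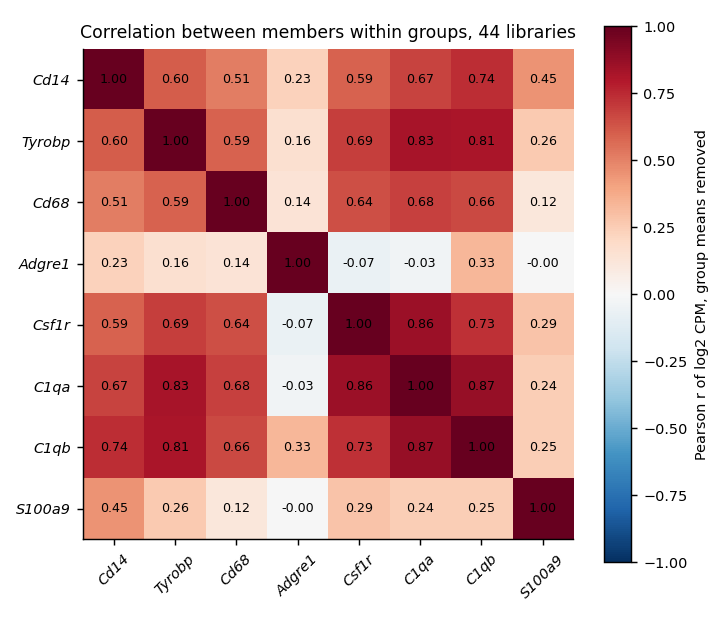
Pearson r of log2 CPM between each pair of the 8 tested members over 44 libraries after group means were removed (colour and number). Cd14, Tyrobp, Cd68, Csf1r, C1qa and C1qb form a block with r between 0.51 and 0.87, and Adgre1 and S100a9 lie outside it.

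Other genes of these cells were read beside the members. For each count between KO/PEG and WT/PEG here, the shares of all genes were 37.5% higher and 37.2% lower. With the length slope as a covariate they were 17.1% and 16.9%. Of 25 further macrophage genes 24 were tested, and 14 were higher and 3 lower in KO/PEG than in WT/PEG, with a median log2 fold change of 0.59. Aif1 and Spi1 were at 1.503 (adjusted p = 3.82e-08) and 1.59 (adjusted p = 4.41e-08), and Cd209a, a lectin of macrophages and dendritic cells, at -3.13 (adjusted p = 1.97e-09). With the length slope as a covariate 10 were higher and 1 lower. From PEG to NTZ in KO mice 3 of the 24 passed, all lower, beside 2.6% of all genes, namely Trem2, Clec7a at -1.34 and Lyz2 at -0.78. Of 10 monocyte genes 9 were tested, and 6 were higher and 1 lower in KO/PEG, and of 18 neutrophil genes 9 were tested, and 7 were higher and 0 lower. Among these was Hdc, which enterochromaffin-like cells also make. The slope as a covariate gave 3 and 0 for the monocyte and 5 and 0 for the neutrophil genes. Of 7 genes of the CSF1R axis 5 were tested, and 4 were higher and 0 lower, or 2 and 0 with the slope as a covariate. Among the 4 was Il34, a ligand of CSF1R, at 0.81 (adjusted p = 0.000268). Csf1, the other ligand, was lower in KO/NTZ than in WT/NTZ, at -0.62 (adjusted p = 0.000219).

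Markers of other cells moved between the genotypes as well, where 37.5% of all genes were higher and 37.2% lower in KO/PEG. In KO/PEG 7 of 8 epithelial genes, 8 of 10 mast cell genes, 7 of 9 tested B and plasma cell genes and 6 of 10 T cell genes were higher, and 6 of 7 parietal cell genes lower. Of 8 endothelial genes 5 were higher and 3 lower, and of 8 fibroblast genes 0 and 4. With the length slope as a covariate the higher genes numbered 4 in the epithelial list, 3 for mast cells, 7 for B and plasma cells and 0 for T cells, and 3 parietal cell genes were lower. Of the endothelial genes 0 were then higher and 1 lower, and of the fibroblast genes 3 higher and 1 lower. In that fit 17.1% of all genes were higher and 16.9% lower. With NTZ in KO mice 3 endothelial, 2 fibroblast and 2 parietal cell genes were lower, and 2 mast cell genes higher. Of all genes 2.6% were lower and 2.97% higher there. The summed CPM of the epithelial list was 4524 to 7084 in WT/PEG and 5828 to 18013 in KO/PEG, and that of the 25 macrophage genes 129.6 to 307 and 187 to 452. The part of cell composition in the members' values was not tested.

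The libraries also differed in how counts depended on transcript length. The length slope, the change in log2 CPM relative to the mean of all libraries for each doubling of transcript length, was 0.12 to 0.35 in WT/PEG and 0.082 to 0.27 in WT/NTZ. It was -0.37 to 0.16 in KO/PEG and -0.34 to -0.062 in KO/NTZ. Of 24 KO libraries 1, KO/PEG 46, lay within the WT range, with C1qa at 23.6, Tyrobp at 7.76 and Cd14 at 19.8 CPM. Apart from that library, slope and genotype cannot be told apart. Within groups the slope went with C1qa (r = -0.68, rho = -0.63, permutation p = 1e-05 and 2e-05), Tyrobp (r = -0.60, rho = -0.58, permutation p = 2e-05 and 8e-05), Csf1r (r = -0.47, rho = -0.41, permutation p = 0.0011 and 0.0072), C1qb (r = -0.42, rho = -0.32, permutation p = 0.0029 and 0.049) and, in the other direction, Adgre1 (r = 0.44, rho = 0.51, permutation p = 0.0047 and 0.0011). For Cd14 the values were r = -0.29, rho = -0.24, permutation p = 0.055 and 0.14.

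With the slope as a covariate Cd14 alone of the 8 tested members passed between KO/PEG and WT/PEG, at a log2 fold change of 2.81 (adjusted p = 2.22e-09) by edgeR. C1qa was at 0.10 (adjusted p = 0.80), C1qb at 0.26 (adjusted p = 0.52), Tyrobp at 0.38 (adjusted p = 0.23) and Csf1r at 0.17 (adjusted p = 0.57). Cd68 was at 0.48 (adjusted p = 0.16), S100a9 at 1.16 (adjusted p = 0.46) and Adgre1 at 0.97 (adjusted p = 0.15). In the same fit Cd14 and C1qb were lower with NTZ in KO mice, at -0.50 (adjusted p = 0.040) and -0.49 (adjusted p = 0.044). The part of RNA quality in these values was not tested.

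**Figure D5:**
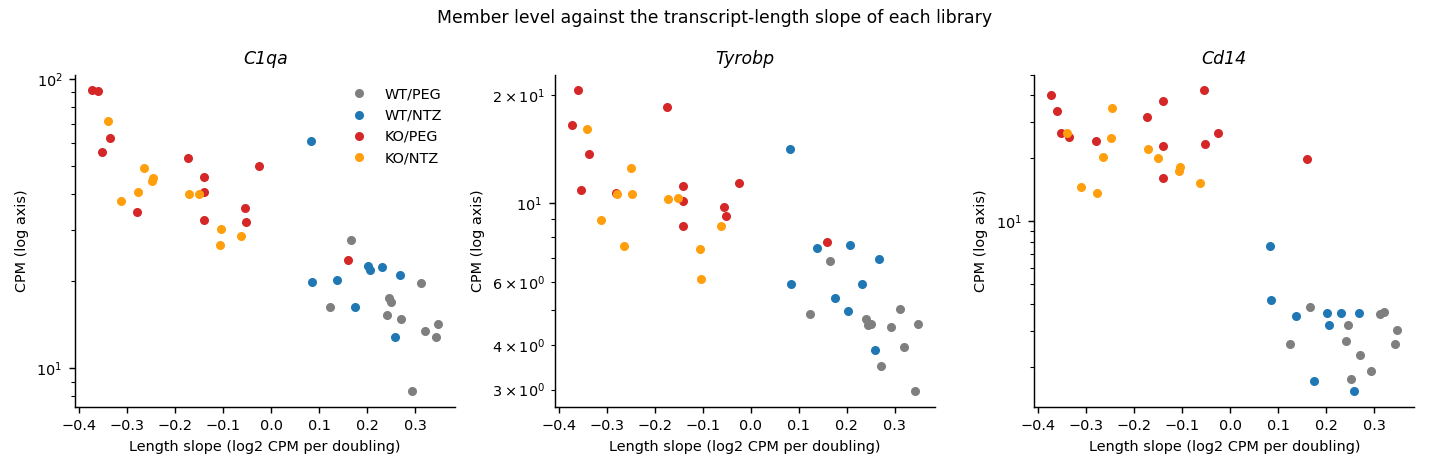
CPM (log axis) of C1qa, Tyrobp and Cd14 against the length slope of each library, coloured by group. KO/PEG libraries lie at slopes of -0.37 to 0.16 and WT/PEG libraries at 0.12 to 0.35, with 1 KO/PEG library inside the WT range.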

How the data were processed

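Biopsies of the gastric corpus mucosa gave stranded messenger RNA libraries. The authors quantified reads with kallisto 0.42.4 and deposited an estimated count per transcript, without normalization (GRCm38). Of 94080 transcripts 92372 were summed by GENCODE M21 gene name and rounded. Genes were kept by filterByExpr with a minimum count of 10 and a minimum total of 15. All 44 libraries were normalized by TMM and fitted in edgeR 4.0.16 with a mean per group. Quasi-likelihood tests were adjusted (Benjamini-Hochberg) over 14901 genes at a threshold of 0.05. The Sleuth test of the study was not repeated. The 10 members and the lists of related genes were chosen with earlier results of these data known. The text names the members, up to 4 passing genes of each list by p, and the 5 genes most like each member, of which 1 for Cd14 is not reported here. Log2 values used a prior count of 2, and ratios one of 0.5. Permutation tests used 100000 resamples, or were exact where a group had fewer than 10 libraries. The edgeR step was tested on simulated data. A floor of 3 counts corresponds to 0.137 to 0.495 CPM and covers counting error only. Alternatives were DESeq2 1.42.0, limma-trend (limma 3.58.1), DESeq2 size factors, no filter, only the groups compared, single transcripts, classes of animal number (below 100, or 100 and above) and each library left out. The covariates of length slope and squamous genes, and the fit without the WT/NTZ library highest in C1qa and the KO/PEG library highest in S100a9, were added after the data were examined.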

Additional observations from a re-analysis of the deposited data

Results flagged for a closer look

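In the WT/NTZ group (9 libraries), the only one to which Dixon's test was applied, the highest library stood far from the others for 7 of the 10 members. Chance flags about 1 in 20 groups. The same library was highest for 6 of them, at 7.60 CPM for Cd14, 14.1 for Tyrobp, 9.73 for Cd68, 10.9 for Adgre1, 61.0 for C1qa and 47.8 for C1qb. The next library reached 4.21, 7.60, 6.05, 6.16, 22.6 and 20.2. Another was at 15.7 CPM for S100a9, where the next reached 5.35. The first of them had the lowest length slope of the WT libraries, 0.082, and a squamous sum of 814 CPM. The other had nearly the same slope, 0.084, and the highest squamous sum of all libraries, 4228 CPM, with C1qa at 19.9 CPM. The part of either measure in these values was not tested. High single libraries were not particular to WT/NTZ, as in KO/PEG the highest S100a9 was 14.04 CPM and the next 4.19.

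Among the 211 related genes tested, 5 responded to NTZ differently in KO and WT mice by the interaction term of the edgeR fit, beside 0.96% of all genes. The log2 difference was -1.45 (adjusted p = 0.033) for C3ar1, the receptor for the complement fragment C3a, and -2.07 (adjusted p = 0.010) for Cfb. It was -2.01 (adjusted p = 0.045) for Clec7a, a receptor for fungal glucans, -1.41 (adjusted p = 0.038) for Ctss, a lysosomal protease, and -1.22 (adjusted p = 0.039) for Hdc, the enzyme that makes histamine.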

How the results depend on the processing

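Of 652 values of single members and ratios under other settings, 586 kept their direction and side of the threshold, 36 passed it, 19 no longer passed and 11 changed sign. Between KO/PEG and WT/PEG 7 members passed, 6 to 7 with any 1 library left out, and 1 with the length slope as a covariate. Of all genes 74.6% passed in the main fit and 34% with the length slope. Between KO/NTZ and WT/NTZ 6 passed, beside 72.4% of all genes, and 5 to 8 with 1 library left out. With the length slope 2 passed, 1 higher and 1 lower. With NTZ in KO mice 0 passed, beside 5.56% of all genes, and 0 to 1 with 1 library left out. DESeq2 called 1, beside 1273 of 16720 genes, and 1 passed within one class of animal numbers. With the length slope 2 passed, both lower, and with the squamous sum 2. Without the WT/NTZ library highest in C1qa and the KO/PEG library highest in S100a9 there were also 2. With NTZ in WT mice 0 passed, beside 1.03% of all genes, and 0 to 2 with 1 library left out. DESeq2 called 1, beside 193 of 17634 genes. There were 3 each within one class of animal numbers and with that class as a covariate. For the NTZ effect in KO minus that in WT mice 0 passed, beside 0.96% of all genes, and 0 to 3 with 1 library left out. DESeq2 called 4, beside 288 of 17634 genes, and its size factors gave 1. With the number class 2 passed, and with the length slope 3, all lower. Where no share is given for a setting, that of all genes is not reported here. Of the ratios to Csf1r within one class, 1 passed with NTZ in KO mice in place of 0, and 3 between KO/NTZ and WT/NTZ in place of 6.

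With the length slope as a covariate, Adgre1 turned to 0.97 between the PEG groups, and between the NTZ groups Tyrobp turned to -0.40, Cd68 to -0.12, Csf1r to -0.13, C1qa to -0.54 and C1qb to -0.59. With NTZ in WT mice Adgre1 turned to -0.056 as a single transcript, to -0.11 without those 2 libraries, and ran from -0.11 to 0.21 with 1 library left out. Within one class the ratio of C1qa to Csf1r with NTZ in KO mice turned to 0.054 and that of Itgam in WT mice to -1.02. The cause was not tested. No paired analysis was possible because the groups share at most 1 animal number.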
